A study of Homo sapiens and Mus musculus with 20 samples.

Results

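The Satb1 sites described here were the peaks of full-length Satb1 in MCF10A cells whose summit lay within 2000 bp of the start of a protein-coding transcript. Starts came from the GENCODE annotation lifted to GRCh37, the assembly also called hg19. Of 22877 peaks, 516 met this rule and are called near-start peaks below, and 22361 lay farther away. The nearest start of these 516 peaks belonged to 498 of 19821 protein-coding genes, which is 2.51% of them.

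The study asked how the genome organizer Satb1 selects its binding sites in chromatin, and mapped binding by ChIP-seq and open chromatin by ATAC-seq, which reads where a transposase can insert into DNA. MCF10A cells are human mammary epithelial cells grown as a line, and make no Satb1 of their own. In every Satb1 condition, a C-terminal eGFP fusion was integrated by lentivirus behind a cumate-inducible promoter. The lines of the different constructs were sorted to the same fluorescence gate. The paper lists a GFP and a Satb1 antibody for its ChIP-seq, and speaks of the GFP epitope when it compares the constructs. The 7 conditions used here had 1 list of peaks each. They were full-length Satb1, Satb1 without its homeodomain (∆HD, written dHD in the plots), the N terminus with the CUT1 domain (N-C1), full-length Satb1 after 2 h of camptothecin, full-length Satb1 after 2 h of ICRF-193, and ATAC-seq of native cells and of cells expressing Satb1. Camptothecin inhibits topoisomerase I and ICRF-193 inhibits topoisomerase II. All sites are therefore sites of an introduced protein at an induced level, in 1 cell line, and no expression of the nearby genes was measured in the data used here. With no replicate lists, no test between conditions was possible and no p-value is given. Intervals are exact 95% Clopper-Pearson intervals for shares and Newcombe intervals for differences of shares, and cover counting error only. Only a range of read depth over the ChIP-seq libraries was stated, with no value for each list, and Satb1 may bind a site whose signal stayed below the threshold of a list. Below, a peak or start is called open or accessible where an ATAC-seq peak overlaps it by at least 1 bp, and closed where none does.

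Satb1 is a nuclear protein best known from thymocytes, where it organizes chromatin around genes of T cell development. It binds A/T-rich DNA through a pair of CUT domains and a homeodomain, and forms oligomers through its N terminus. In most cells, the starts of protein-coding genes lie in G/C-rich and accessible DNA, whereas A/T-rich DNA is mostly closed. A near-start Satb1 site thus places a protein that prefers A/T beside sequence that is usually poor in it.

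The sequences of 5 near-start peaks are shown first, because they include the strongest binding and some of the shortest distances described below. The opening 3 had the largest fold enrichment, and the other 2 were among the closest to a start. Each is 120 bp of the hg19 plus strand around the summit, and capitals mark exact matches to the Satb1 consensus YTAWTAR, with Y for C or T, W for A or T, and R for A or G. The first lies at chr7:99194096-99194215, 1734 bp upstream of TMEM225B. The second lies at chr4:114255688-114255807, in an intron of ANK2 and 1444 bp downstream of one of its starts. The third lies at chr11:125934982-125935101, 1812 bp upstream of CDON. The fourth lies at chr1:215747011-215747130, in an intron of KCTD3 and with its summit 58 bp upstream of an internal start. The fifth lies at chr19:37718332-37718451, in an intron of ZNF383 with its summit 60 bp upstream of a start.
TMEM225B: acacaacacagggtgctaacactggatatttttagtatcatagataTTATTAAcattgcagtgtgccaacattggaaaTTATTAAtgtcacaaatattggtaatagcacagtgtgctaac
ANK2: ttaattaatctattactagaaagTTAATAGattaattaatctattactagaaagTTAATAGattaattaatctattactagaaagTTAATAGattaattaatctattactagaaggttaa
CDON: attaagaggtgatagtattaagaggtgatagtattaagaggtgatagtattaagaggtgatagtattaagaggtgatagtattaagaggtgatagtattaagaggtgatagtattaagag
KCTD3: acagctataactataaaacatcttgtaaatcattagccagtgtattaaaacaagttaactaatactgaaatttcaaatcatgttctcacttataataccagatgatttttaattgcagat
ZNF383: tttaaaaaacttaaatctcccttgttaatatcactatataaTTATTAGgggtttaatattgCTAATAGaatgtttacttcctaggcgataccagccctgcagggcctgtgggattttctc
These sequences showed that strong near-start peaks need not look alike. The TMEM225B peak held 8 matches in 400 bp at its summit, and the 120 bp shown here held 2 of them in DNA of 66.7% A/T. The ANK2 peak was a tandem array that repeated its match. The CDON peak was a tandem array of another unit without any match. The KCTD3 and ZNF383 peaks were weak, and carried 1 and 2 matches in 400 bp.

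Near-start peaks were fewest within 250 bp of the start. Their median distance was 1144 bp, from 48 to 1999 bp. In the class of up to 500 bp there were 100 peaks, against 121 at 500 to 1000 bp, 148 at 1000 to 1500 bp and 147 at 1500 to 2000 bp. In windows of 250 bp, the window just upstream of the start held 19 peaks and the one just downstream held 12, the lowest counts of their sides. The other windows held 26 to 43, and the highest count, 43, was at 250 to 500 bp upstream. In all, 31 summits lay within 250 bp and 6 within 100 bp, and 24 peak intervals covered the start. Upstream peaks numbered 280 (54.3%, 49.9 to 58.6) and downstream peaks 236, and both sides had the same strength, with median fold enrichments of 7.34 and 7.33. Fold enrichment is the authors' ratio of reads at the peak to the local background.

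**Figure D1:**
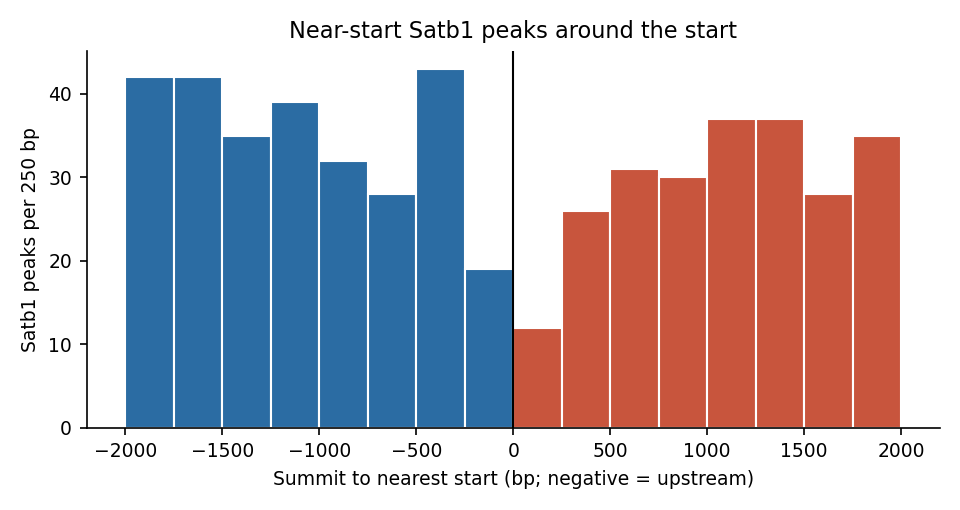
Number of near-start Satb1 peaks in windows of 250 bp by the distance of the summit from the nearest protein-coding start in bp, upstream in blue and downstream in red. The windows on either side of the start hold 19 and 12 peaks, and the other 14 hold between 26 and 43.

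The nearest start was seldom the main start of its gene, as is true of annotated starts in general. The nearest start was that of the gene's canonical transcript, the 1 representative transcript per gene named by Ensembl, for 144 peaks (27.9%, 24.1 to 32.0), and canonical starts made up 24.8% of all distinct protein-coding starts. For 117 peaks (22.7%, 19.1 to 26.5) it was the first base of a transcript model whose 5′ end the annotation marks as incomplete, against 10.1% of all 78569 distinct protein-coding starts. KCTD3 and RAD51AP1, a factor of homologous recombination, were among the 5 closest peaks and both had such starts, so their distances of 58 and 84 bp need not be distances to a site of transcription initiation. PCLO, which encodes a scaffold of the presynaptic active zone, had the closest summit at 48 bp, at an internal start annotated as complete. Restricted to complete 5′ ends, 399 of the 516 peaks kept their nearest start. Summits lay in introns of 365 peaks (70.7%) and between genes in 133 (25.8%), against 36.9% and 62.1% of the peaks farther away. The rule shapes this contrast, because a summit a short way downstream of a start mostly lies inside that transcript. Between genes lay 2.97% of downstream peaks and 45.0% of upstream peaks. Upstream peaks also fell in introns in 148 of 280 cases (52.9%, 46.8 to 58.8). Coding sequence held 2 summits (0.388%), in PDS5A, a cohesin regulator, and ANKIB1, against 0.0699% of all full-length peaks. A 5′ UTR held 6 (1.16%), among them that of OR5H6, against 0.0350%. The rule shapes the latter share too, because a 5′ UTR begins at a start.

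Near-start peaks were of the same strength as the rest of the list. Their median fold enrichment was 7.33 (7.05 to 7.68) and ranged from 3.73 to 52.4, against a median of 7.32 farther away. Their median widths were 312 and 314 bp. Over the whole list 516 of 22877 peaks were near-start. On chromosome 19 this was 25 of 150, and this chromosome holds 5720 starts. Chromosome 1 held the largest number, 57 of 2330, but also the most peaks of the list and the most starts, 7075.

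The peaks just inside and just outside the limit of 2000 bp had fold enrichments from 9.16 to 20.5. UGT2B17, an enzyme that glucuronidates steroids, had a summit at 1999 bp with a fold enrichment of 14.3, and DGKZ, a diacylglycerol kinase, had one at 1998 bp with 9.16. Just outside, PUM2, an RNA-binding repressor, had one at 2005 bp with 20.5, and RMDN2 had one at 2007 bp with 18.6.

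Near-start peaks carried the same consensus as the rest of the list. Of 515 peaks with reference sequence, 493 (95.7%, 93.6 to 97.3) held at least 1 exact match to YTAWTAR in 400 bp, against 96.7% of all full-length peaks. The mean number of matches was 2.63 (SD 1.42 across peaks) against 2.76 farther away, and 9.32% against 9.33% held 5 or more. Among peaks with at least 1 match, those with 5 or more had the highest median fold enrichment near starts, and that class was also high farther away. Among near-start peaks the median fold enrichment was 6.78 for the 226 peaks with 1 or 2 matches, 7.74 for the 219 with 3 or 4, and 11.5 (7.46 to 17.6) for the 48 with 5 or more. The last value was 13.8 farther away.

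Counted in 400 bp at the midpoint, the ANK2 peak held the most matches, 12. The next were 8 at TC2N, 7 at CACNG8, an auxiliary subunit of AMPA receptors, and 6 at MAN1A2, a Golgi mannosidase. Their fold enrichments were 51.3 at ANK2, 12.0 at TC2N, 6.43 at CACNG8 and 26.8 at MAN1A2, so that many matches went with both strong and weak peaks. The CACNG8 peak lay 267 bp upstream of a CpG-rich canonical start and its 200 bp held 52.0% A/T. The order depends on the window. In 400 bp at the summit, ANK2 held 10 matches, TC2N 7, CACNG8 5 and MAN1A2 6, and MAS1L also held 10.

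The 22 peaks without a match had a median fold enrichment of 6.89, but they included 2 of the 10 strongest. These were CDON, a cell surface co-receptor of hedgehog signalling, with 49.1, and TEKT1, a tektin of cilia and flagella, with 35.5. HHLA2, a ligand of the B7 family, had 14.0 and CSN2, the milk protein beta-casein, had 10.5, both picked out after their values were seen. Of the 22 peaks, 20 were in the ∆HD list and 21 in the N-C1 list, close to the shares of 88.6% and 95.2% over all full-length peaks. The camptothecin list held 13 of them and the ICRF-193 list 19, against 81.7% and 92.9% of all full-length peaks. With 22 peaks, whether these counts differ from those shares was not tested.

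Tandem repetition was measured after the first sequences had been seen, as the largest share of bases in 400 bp that equal the base 8 to 100 bp further on. It reached 76.7% at a shift of 31 bp in the ANK2 peak, 66.8% at 16 bp in the CDON peak and 98.9% at 40 bp in the ZNF835 peak, whose fold enrichment of 3.73 was the lowest of all near-start peaks. These 3 of 515 peaks (0.583%, 0.120 to 1.69) were the only ones at 60% or more, and 0.582% of peaks farther away reached that level. Reads from tandem arrays align to more than 1 place, so peak heights there are uncertain.

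Near-start peaks were nearly as rich in A/T as other Satb1 peaks but stood in a poorer surrounding. Their 200 bp held 71.1% A/T (SD 5.74, 70.6 to 71.6) against 72.4% (72.3 to 72.5) farther away. Their flanks, 1000 to 2000 bp to either side, held 58.1% (SD 6.99) against 62.6%. The step from flank to peak was 13.0 percentage points (12.3 to 13.6) near starts and 9.85 farther away, and 500 of 515 peaks (97.1%, 95.2 to 98.4) exceeded their own flanks, against 94.7% of all full-length peaks. The range was wide, from 49.0% to 88.0%. The MAS1L peak held 49.0% A/T in the 200 bp around its midpoint, below its flanks at 51.0%. This peak is 1542 bp wide, and its 400 bp held 2 matches at the midpoint and 10 at the summit. The X-linked copy of AKAP17A held 85.0% between flanks of 41.6%.

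The starts beside the peaks were themselves richer in A/T than protein-coding starts in general. In the 100 bp upstream of the start, A/T content averaged 53.4% at these starts and 38.4% at all protein-coding starts. Limited to canonical starts, the values were 46.2% and 34.7%. At 2000 bp upstream the gap was narrower, with 61.0% and 54.4%. CpG-rich starts, those with at least 50% G/C and an observed to expected CpG ratio of at least 0.6 in 500 bp, made up 106 of 515 (20.6%, 17.2 to 24.3) against 56.5% of all starts. In shares of starts here and below, starts beside peaks are counted once per peak, and starts in general once each. Where the nearest start was canonical, the share was 36.4%, against 68.2% of all canonical starts. With summits measured to canonical starts only, it was 41.9% of the starts beside 222 peaks. The letters TATAAA stood 20 to 40 bp upstream of 20 starts (3.88%, 2.39 to 5.93) against 1.44% of all starts, searched on the strand of the transcript. At canonical starts this was 10.5% beside peaks and 3.89% in general. TATAAA holds only A and T, and the starts beside peaks were richer in both. Whether these shares differ beyond that was not tested.

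**Figure D2:**
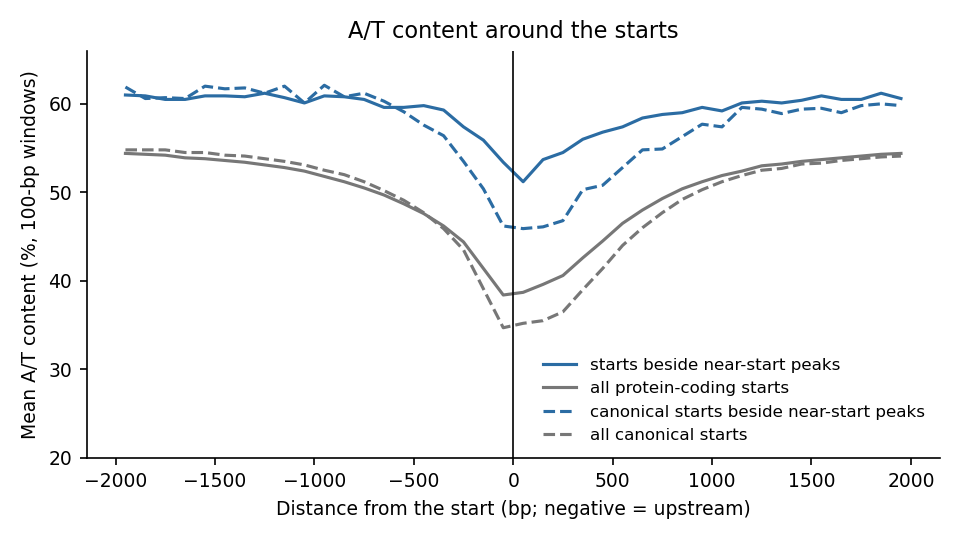
Mean A/T content in percent, in windows of 100 bp, by distance from the start in bp, at starts beside near-start Satb1 peaks (blue) and at protein-coding starts in general (grey), with solid lines for all starts and dashed lines for canonical starts. Just upstream of the start the blue lines fall to 53.4% and 46.2% and the grey lines to 38.4% and 34.7%.

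The consensus was also found at the starts and not only under the peaks. At 391 starts over 600 bp from the summit, so that the 400 bp window held little of the peak, 69 (17.6%, 14.0 to 21.8) held a match, against 7.14% of all starts. Among these starts beside peaks, the share was 4.04% at CpG-rich starts and 22.3% at the others. CpG-rich starts were 20.6% of those beside peaks and 56.5% of all starts, so the sets differ in composition. Whether the match share differs beyond that was not tested. A match here is a description of the letters and not a binding site.

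Most near-start peaks lay in closed chromatin, yet they were accessible more often than peaks farther away. In native cells 46 near-start peaks were accessible (8.91%, 6.60 to 11.7) against 3.42% of all full-length peaks, and the difference from peaks farther away was 5.62 percentage points (3.45 to 8.40). In cells expressing Satb1 there were 58 (11.2%, 8.65 to 14.3) against 4.64%, with a difference of 6.75 points (4.29 to 9.78). Both lists marked 40 of them (7.75%). The ATAC-seq list of Satb1-expressing cells held 206170 peaks and that of native cells 175989, so the higher share in the former goes with a longer list.

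Accessibility did not rise steadily toward the start. In cells expressing Satb1, 0 of the 31 peaks within 250 bp were accessible, while 15 of 69 at 250 to 500 bp were (21.7%). The share was 14.9% at 500 to 1000 bp, 7.43% at 1000 to 1500 bp and 9.52% at 1500 to 2000 bp. It went on at 9.84% between 2 and 5 kb and reached 3.08% beyond 100 kb, so the limit of 2000 bp was not a border.

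**Figure D3:**
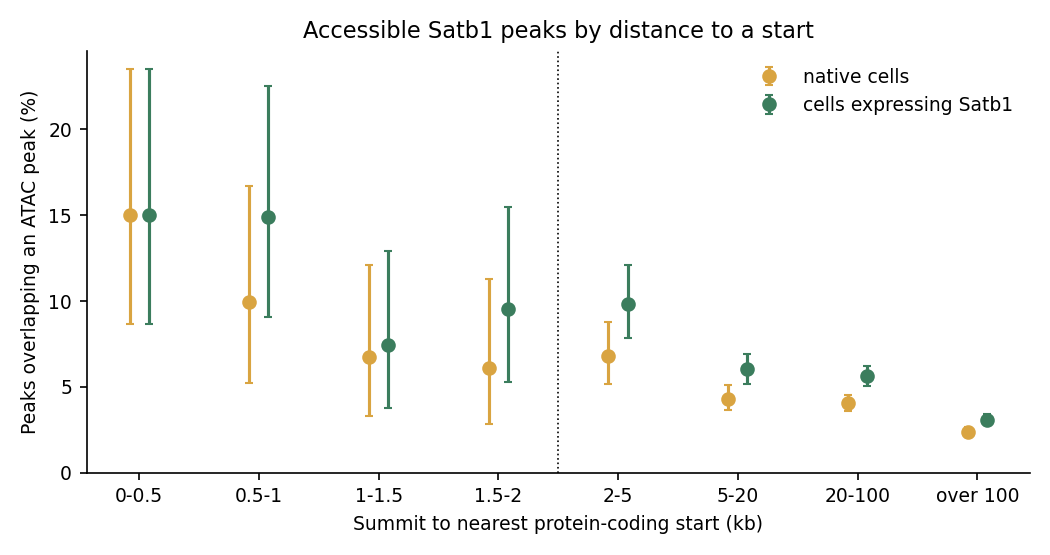
Percent of full-length Satb1 peaks that overlap an ATAC-seq peak by distance of the summit from the nearest protein-coding start in kb, in native cells (yellow) and cells expressing Satb1 (green), with exact 95% intervals as bars and a dotted line at the limit of 2 kb. The values run from 15.0% in both at 0 to 0.5 kb to 2.36% and 3.08% beyond 100 kb.

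The starts beside the peaks were mostly closed as well. A start lay inside an ATAC-seq peak for 147 peaks in native cells (28.5%, 24.6 to 32.6) against 63.6% of all starts, and for 156 in cells expressing Satb1 (30.2%, 26.3 to 34.4) against 68.5%. The gap held for starts with a complete 5′ end, with 37.3% beside peaks and 72.5% in general in cells expressing Satb1. It held for the 144 peaks whose nearest start was canonical, with 41.0% against 73.1% of canonical starts. With summits measured to canonical starts only, 223 peaks lay within 2000 bp, and 48.4% of the starts beside them were open. The shares beside peaks take the nearest start of each peak, while those in general take each distinct start once. Seen from the starts, 902 of 78569 (1.15%) had a Satb1 summit within 2000 bp. Of these 902 starts, 393 were open in native cells and 409 in cells expressing Satb1, so the gap was narrower on this count. The share with a summit was 0.760% (0.688 to 0.837) of starts accessible in cells expressing Satb1 and 1.99% (1.82 to 2.17) of the other starts. Transcripts of a gene share peaks, so these starts are not independent.

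Peak and start were mostly open or closed together. In cells expressing Satb1, 351 pairs (68.0%) had neither open, 49 had both open, 107 had an open start beside a closed peak, and 9 had an open peak beside a closed start. The peak was accessible in 31.4% of cases where the start was and in 2.50% where it was not, a difference of 28.9 points (21.8 to 36.7). An ATAC-seq peak at the start can reach over the Satb1 peak, so these are not separate measures. By CpG class, 26.4% of peaks beside CpG-rich starts and 7.32% beside other starts were accessible.

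Among the 5 strongest peaks with a summit open in both ATAC-seq lists, 4 lay beside an open start. KATNBL1, a katanin-like regulator of microtubules, had a fold enrichment of 21.0 at 907 bp downstream, CSTF2T, a cleavage stimulation factor for polyadenylation, had 15.2 at 761 bp upstream, and TANC2, a postsynaptic scaffold, had 10.9 at 956 bp downstream. MAST4, a microtubule-associated kinase, had 10.2 at 969 bp downstream, and ZNF846, a zinc finger gene, had 12.5 at 1657 bp downstream of a start that was closed in both lists. Other open pairs, picked out after their values were seen, included FOSB, a subunit of AP-1, with 5.83 at 931 bp upstream, CDK7, the kinase of TFIIH, with 5.51 at 389 bp downstream, and the histone genes H2AC11 with 10.1 and H3C10 with 7.34.

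Near-start peaks were found in the construct lists about as often as other peaks. In the ∆HD list 455 of 516 (88.2%, 85.1 to 90.8) were found, against 88.6% of all full-length peaks. In the N-C1 list 489 (94.8%, 92.5 to 96.5) were found, against 95.2%. The differences from peaks farther away were −0.413 points (−3.51 to 2.13) and −0.425 points (−2.71 to 1.21). These lists held 50537 and 62856 peaks. Both constructs covered 452 near-start peaks, N-C1 alone 37, ∆HD alone 3 and neither 24 (4.65%). Over all full-length peaks these classes held 87.9%, 7.31%, 0.713% and 4.10%, so the near-start counts were close to the list as a whole. The 3 with ∆HD alone were PTCRA, the pre-T cell receptor alpha chain, CARD8, an inflammasome sensor, and MTMR1, a phosphoinositide phosphatase, with full-length fold enrichments of 5.45, 5.05 and 4.12. All 106 peaks beside CpG-rich starts were in the N-C1 list, against 93.4% of the others, a difference of 6.59 points (2.55 to 9.41).

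The 24 peaks absent from both construct lists had the strength of other near-start peaks. Their median fold enrichment in the full-length list was 7.38, up to 26.9. Of these, 19 were in the camptothecin list and 23 in the ICRF-193 list, close to the shares of 81.7% and 92.9% over all peaks. The strongest, with 26.9, was assigned to the Y-linked copy of AKAP17A, which anchors protein kinase A. DEFB106A, a beta-defensin, followed with 19.0, and its near-identical copy DEFB106B with 16.0. All 3 lie in DNA with a near-identical copy elsewhere. In these, reads may have been split or dropped between copies, and the values are uncertain. The X-linked copy of AKAP17A had 29.2 in the full-length list and 6.04 in the N-C1 list, and was absent from the ∆HD list. Both copies had their summit 467 bp upstream of the start, so the X and Y peaks may be 1 site counted in both. Other examples, picked out after their values were seen, were CSN2, with 10.5 in the full-length list, 8.45 after camptothecin and 16.7 after ICRF-193, and SLITRK6, a neuronal membrane protein, with 7.46, 7.36 and 11.6.

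Near-start peaks were found less often than other peaks in the lists made after topoisomerase inhibition. After camptothecin 393 of 516 (76.2%, 72.2 to 79.8) were found against 81.7% of all full-length peaks, a difference from peaks farther away of −5.62 points (−9.51 to −2.11). After ICRF-193 465 (90.1%, 87.2 to 92.6) were found against 92.9%, a difference of −2.89 points (−5.79 to −0.578). The camptothecin list held 24475 peaks and the ICRF-193 list 37350. The difference appeared among weak peaks. Above a fold enrichment of 8 nearly all peaks of both sets were found, so little difference could show there. At full-length fold enrichments up to 6, 67 of 149 near-start peaks (45.0%) and 59.5% of those farther away were in the camptothecin list, a difference of −14.6 points (−22.4 to −6.47). From 6 to 8 the shares were 72.4% and 79.6%. From 8 to 12, 112 of 113 near-start peaks and 97.7% of the others were found, and above 12 all 109 were found, as were 100% of the others. After ICRF-193 the shares at up to 6 were 75.2% and 82.5%, a difference of −7.35 points (−14.9 to −1.04). The difference after camptothecin was −9.49 points (−17.6 to −2.63) between peaks outside genes and −3.46 points (−8.10 to 0.640) between peaks in introns. Whether weak peaks near starts were lost from binding or fell below the peak caller's threshold was not tested.

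**Figure D4:**
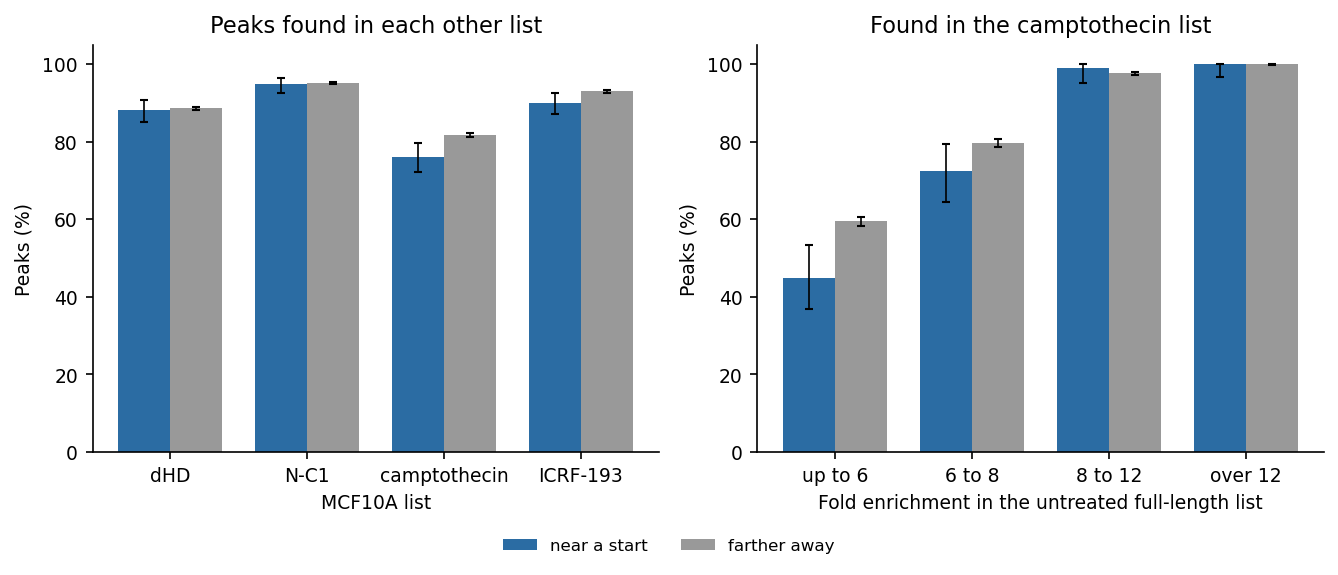
Percent of near-start (blue) and farther (grey) full-length Satb1 peaks that overlap a peak of each other MCF10A list (left), and percent found in the camptothecin list by fold enrichment class in the full-length list (right), with exact 95% intervals as bars. In the weakest class 45.0% of near-start peaks and 59.5% of the others were found, and above a fold enrichment of 12 the share was 100% in both.

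Both drug lists missed 45 near-start peaks (8.72%), against 5.78% farther away, and all 45 had a full-length fold enrichment of 7.48 or less. Of these 45, 44 were in the N-C1 list and 38 in the ∆HD list, near the shares of 95.2% and 88.6% over all peaks. The 3 strongest were OOSP1, an oocyte-secreted protein, with 7.48, NRSN1, a neuronal vesicle protein, with 7.46, and TSPAN18, a tetraspanin, with 6.91. In all, 341 near-start peaks (66.1%) were in each of the 4 other lists, against 70.8% of all full-length peaks, and the difference from peaks farther away was −4.82 points (−9.05 to −0.822). The only peak in none was at BCL2A1, an anti-apoptotic protein of the BCL2 family, with a fold enrichment of 5.68 at 1058 bp downstream.

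The 10 strongest near-start peaks were found in all 5 Satb1 lists but did not keep their order. Each list has its own background, so fold enrichments of different lists are set side by side and not divided. At TMEM225B it was 52.4 for full-length Satb1, 67.6 for ∆HD, 81.2 for N-C1, 60.5 after camptothecin and 66.8 after ICRF-193. At CDON it was 49.1, 83.8, 71.0, 62.1 and 65.6 in the same order. Both peaks were thus high in every list.

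At ANK2, which encodes an adaptor between membrane proteins and the cytoskeleton, the values were 51.3 for full-length Satb1, 9.91 for ∆HD, 49.1 for N-C1, 54.6 after camptothecin and 60.6 after ICRF-193. At MAS1L, an orphan receptor of the MAS family, they were 41.0, 9.27, 35.8, 43.1 and 44.0. At TRIM5, a restriction factor of retroviruses, they were 32.4, 5.91, 31.2, 30.8 and 39.6. These 3 were low in the ∆HD list alone, near or below the median of 9.91 that near-start peaks had there, and each other list gave 30.8 or more.

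At SH3BGR the values were 45.6, 36.6, 75.6, 37.0 and 43.2, and at DDX47, an RNA helicase, 41.4, 36.2, 70.6, 33.0 and 46.2. At OR10H4, an olfactory receptor, they were 40.8, 29.0, 52.7, 42.3 and 49.5. In these peaks N-C1 gave the highest value of the 5 lists. The same was true at TEKT1, with 35.5, 41.9, 64.7, 22.4 and 29.2, and at ALAS2, the enzyme that starts heme synthesis in erythroid cells, with 34.3, 30.7, 55.5, 25.3 and 28.4. Over all near-start peaks found in each list, the median fold enrichment was 9.91 for ∆HD, 10.7 for N-C1, 7.72 after camptothecin and 9.29 after ICRF-193, and farther away it was 9.91, 10.6, 7.67 and 9.48.

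**Figure D5:**
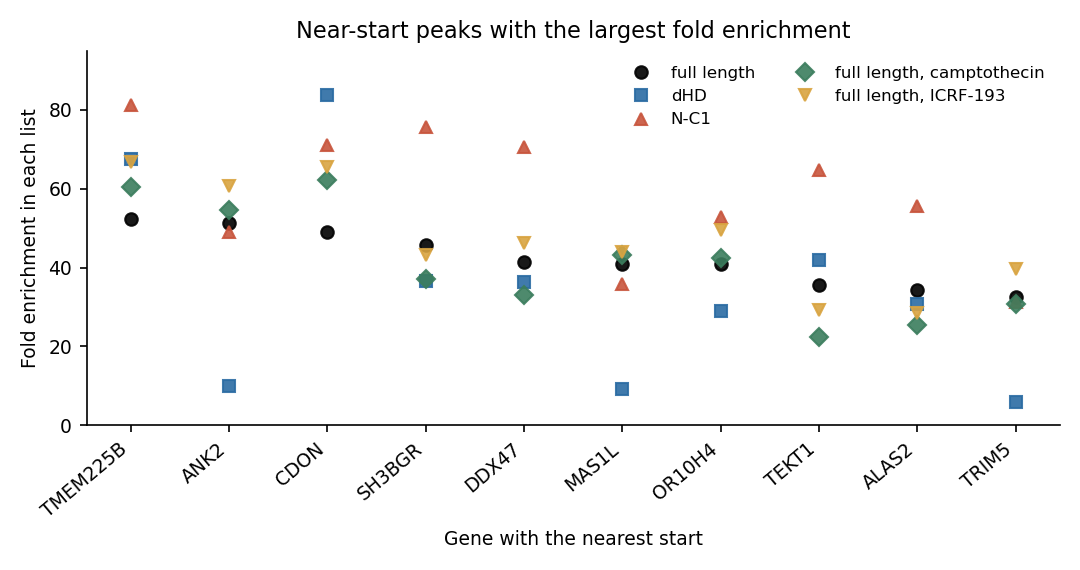
Fold enrichment over local background in each of the 5 MCF10A Satb1 lists, 1 marker per list, for the 10 near-start peaks with the largest value in the full-length list, named by the gene with the nearest start. The ∆HD values of ANK2, MAS1L and TRIM5 are 9.91, 9.27 and 5.91, while no other value lies below 22.4.

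The strongest peaks were mostly closed, and about as many of their starts were open as closed. Of these 10, only TMEM225B, MAS1L, OR10H4 and TEKT1 had a canonical nearest start, and those of ANK2, SH3BGR and ALAS2 belonged to transcript models with an incomplete 5′ end. The ATAC-seq lists overlapped the peaks of TMEM225B in both cell states and of CDON in cells expressing Satb1. The starts beside these 10 peaks were open for 4 in native cells (CDON, DDX47, TEKT1 and TRIM5) and for 5 in cells expressing Satb1, where that of SH3BGR was open too.

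The 5 closest peaks were closed, with full-length fold enrichments from 5.24 to 7.60. PCLO, at 48 bp, had fold enrichments of 6.09 for full-length Satb1, 11.8 for ∆HD, 13.0 for N-C1, 5.74 after camptothecin and 7.33 after ICRF-193. KCTD3, at 58 bp, had 5.24, 5.44, 6.84, 4.55 and 9.30, and ZNF383, at 60 bp, had 6.41, 5.58 and 8.30 and was in neither drug list. OR5H6, at 79 bp, had 6.09, 8.02, 8.65, 5.01 and 5.19. RAD51AP1, at 84 bp, had 7.60 and was otherwise found after ICRF-193 alone, with 9.68. None of these 5 peaks or their starts overlapped an ATAC-seq peak.

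Near-start peaks were spread thinly over genes, and 481 genes had 1, 16 had 2 and 1 had 3. The gene with 3 was EYS, which encodes a protein of retinal photoreceptors, with fold enrichments of 9.93, 7.60 and 5.27. The last 2 of these lay beside 1 start and were overlapped by the same broader peak in each other list, and the first lay beside the start of an incomplete transcript. OR10H4 had peaks on both sides of its start, with 40.8 upstream and 10.8 downstream, and KRTAP22-2, a keratin-associated protein of hair, had 17.2 upstream and 10.9 downstream. SMARCA2, an ATPase of the SWI/SNF remodelling complex, had 19.7 and 13.2 beside different starts, and BBX, an HMG-box protein, had 16.2 and 4.86.

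By gene family, olfactory receptors, the odorant-sensing receptors of the nose that lie in clusters of closed chromatin in most tissues, were the largest group. Of 391 olfactory receptor genes, 26 had a near-start peak (6.65%, 4.39 to 9.59), against 2.51% of all protein-coding genes. Their 29 peaks had fold enrichments from 4.81 to 40.8 with a median of 7.28, 20 lay upstream, 22 had a canonical nearest start and 24 held a match. None of the 29 peaks was accessible in cells expressing Satb1, where 1 of the starts was, and 28 were in both construct lists. Over all full-length peaks, 96.7% held a match, 4.64% were accessible and 87.9% were in both construct lists. With 29 peaks, whether these counts differ from those shares was not tested. OR2T3, OR2T34 and OR2T29 are near-identical copies whose reads may be shared, so their peaks are uncertain. Of these 29 peaks, 8 lay on chromosome 11, 7 on chromosome 1 and 5 on chromosome 19.

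Zinc finger genes named ZNF followed with 19 of 512 (3.71%, 2.25 to 5.73), the strongest being ZNF846 with 12.5. Potassium channel subunits had 5 of 95 (5.26%, 1.73 to 11.9), led by KCNH1, a voltage-gated channel, with 12.0 at 352 bp upstream. Keratins and keratin-associated proteins had 5 of 149, defensins 3 of 46, and cadherins 3 of 89, led by CDH18 with 5.82. Solute carriers had 4 of 386 (1.04%, 0.283 to 2.63), led by SLC3A1, a transporter subunit for cystine and basic amino acids, with 7.74 at 165 bp upstream. Cytosolic ribosomal protein genes, which have strongly active starts in all cells, had 0 of 102, which allows a share of up to 3.55%. Chemokines and their receptors had 0 of 58, forkhead genes 0 of 53, and taste receptors and interferons 0 of 27 each. Apart from olfactory receptors, the interval of each family named here included the share of 2.51% over all genes.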

How the data were processed

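Reads had been trimmed by the authors (cutadapt) and aligned to hg19 (Bowtie2). They called peaks with MACS2, for ChIP-seq with input DNA as control and for ATAC-seq in broad mode. Tool names follow the submitters' notes and the paper, and whether duplicate libraries were pooled before peak calling is not given in the sources used here. In the deposited files, fold enrichment is the authors' ratio of pileup to local background. The −log10 p-value, the −log10 q-value and the score in the deposited files also come from MACS2. No counts were used, and for ChIP-seq only a range of depth over the libraries is stated, without a value for each list. The depth of the ATAC-seq lists is unknown. Depth sets how many weak peaks pass, so shares found in a list move with its length.

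From these lists, the distance of each summit (or of the interval's midpoint for windows of sequence) to protein-coding starts of GENCODE 44 on GRCh37 was computed, with exact YTAWTAR matches in 400 bp (overlapping matches included; the consensus reads the same on both strands), A/T content in 200 bp, and overlaps of at least 1 bp. Of the full-length peaks, 19 had no reference sequence, 1 of them near a start. Shares carry 95% Clopper-Pearson intervals. Members, families and lists were chosen with earlier results of these data known. The genes named were the 10 strongest peaks, the 5 closest, the 5 with the most matches, the 5 strongest with an open summit in both ATAC-seq lists, the 3 strongest missing from both construct or both drug lists, genes with several peaks, the strongest of each family and the 2 on either side of the limit, and others are named as picked out afterwards. A gene that this rule names is not reported here. Canonical and complete starts and tandem repetition were added after seeing the data. The histone family was void, since its name pattern matched 2 genes under the current symbols. Functions were tested on simulated data. Tools were Python 3.11.15, numpy 2.4.6, pandas 2.3.3, scipy 1.17.1, matplotlib 3.10.9, bedtools 2.31.1 and samtools 1.23.1.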

Additional observations from a re-analysis of the deposited data

How the results depend on the processing

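Of 69 recalculations of 14 results, 42 stayed close to the reported value and 27 did not, where close means inside the reported 95% interval for shares, means and medians and within 1.5 times for the number of peaks. The number of near-start peaks became 1065 with the starts of all transcripts of protein-coding genes, 221 with a limit of 1000 bp, 1309 with a limit of 5000 bp and 223 with canonical starts only. The share with a consensus match became 90.1% in a window of 150 bp and 65.2% for CTAATAR on either strand, and A/T content became 73.6% in 100 bp and 67.9% in 400 bp. The accessible share of near-start peaks in native cells became 5.23% where the summit had to lie inside the ATAC-seq peak, 5.23% where an ATAC-seq peak had to cover 50% of the site, 12.2% within 1000 bp and 15.2% with canonical starts. In cells expressing Satb1 these were 8.53%, 8.33%, 14.9% and 17.9%. The accessible share of the starts became 48.0% in native cells and 48.4% in cells expressing Satb1 with canonical starts, and 35.3% and 37.0% with complete 5′ ends, and the CpG-rich share became 41.9% and 26.0%. The share found in the ∆HD list became 74.2% with a reciprocal overlap of 50%, 84.1% with summits within 100 bp, and 83.4% at a fold enrichment of at least 5 in both lists, and the share in the N-C1 list became 91.7% and 90.7% under the first 2 of these. Canonical and complete starts were chosen after seeing the data. The limits are those of single lists without replicates. Depth per list is unknown, weak peaks depend on the threshold of the peak caller, and the annotation decides which starts count.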
